A study of Mus musculus with 6 samples.

Results

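A set of 54 genes for the actin cytoskeleton and for focal adhesions, the sites where integrins are tied to actin, was chosen by symbol and followed on 2 surfaces. Of these, 50 had a probe set named in the platform annotation, 1 each, out of 19505 genes tested. Actg1, Arpc3, Actr2 and Ptk2 were not analysed here. The cells were RAW264.7, a mouse macrophage line, cultured for 3 days on polyetheretherketone (PEEK), a polymer of bone implants. On 3 arrays the cells came from pristine PEEK, the control, and on 3 from modified PEEK, with no account of the modification in the labels. Genotype, medium and culture time were shared, and no agent other than the surface is named. Nothing in the labels places the 3 samples of a surface in separate experiments, so each p-value reflects only how far these samples vary, and that variation may be technical. A single cell line stands for macrophages here, and RAW264.7 is a transformed line.

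Actin exists as monomers and as filaments. Profilin and cofilin set the pool of monomers, the Arp2/3 complex starts branches from existing filaments, and Ena/VASP proteins and formins extend them. Filaments are bundled by alpha-actinins, plastin and fascin, pulled by non-muscle myosin, and anchored at adhesions through talin, vinculin, paxillin and zyxin. Ezrin, radixin and moesin tie filaments to the plasma membrane. In macrophages these proteins serve spreading, migration, phagocytosis and the formation of podosomes, small actin-rich contacts with a surface.

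On modified PEEK most of this machinery was expressed at a level close to that on pristine PEEK. A small number of adhesion and bundling genes and 1 membrane linker were lower, and 2 genes were higher. The other 3 genes of the membrane-linking group had changes above 0 and did not pass. Of the 50 genes, 7 passed (limma, adjusted p under 0.05), 2 higher and 5 lower. That is 14% of them, a share near the 10.4% of all 19505 genes, 5.24% higher and 5.15% lower. The falls were those of Zyx (-0.90 on the log2 scale, 1.87-fold lower), Msn (-0.67), Actn1 (-0.65), Marcksl1 (-0.41) and Pxn (-0.39). The rises were those of Tagln2 (0.47, 1.38-fold higher) and Coro1c (0.42). For 42 of the 50 genes the 95% interval of the change lay inside a 1.5-fold difference in either direction, as it did for 73.7% of all genes. The median change was -0.043, beside 0.0088 for all genes.

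**Figure D1:**
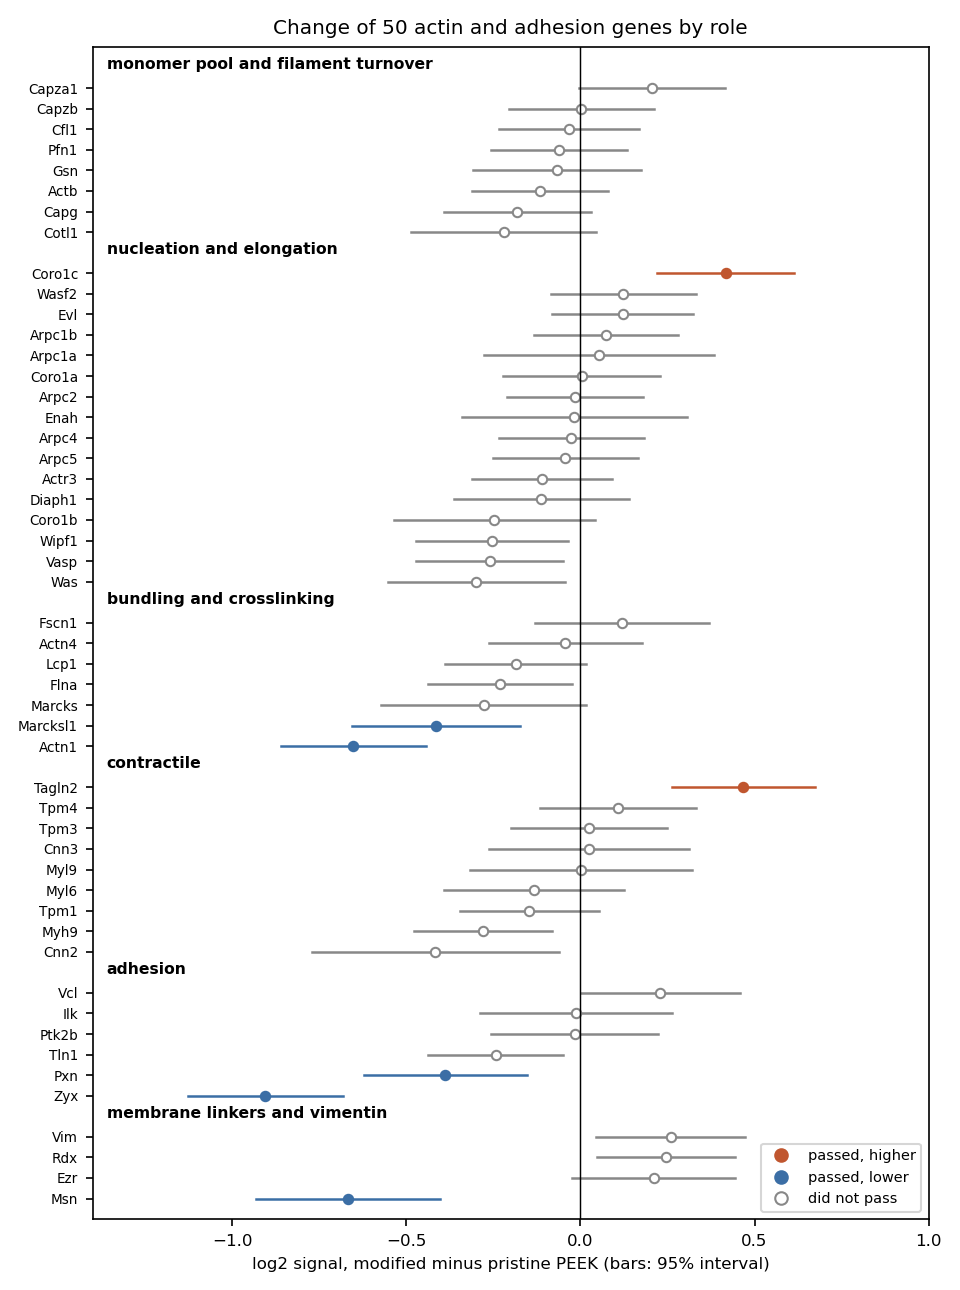
The horizontal axis is the log2 signal on modified minus pristine PEEK for each of the 50 genes, grouped by role, and bars are 95% intervals of the limma fit (3 arrays per surface). Filled points are the 7 genes that passed, from Zyx at -0.90 to Tagln2 at 0.47, and open points the 43 that did not.

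The calls rest on small differences, and how many pass depends on how the variance is modelled. When the variance was allowed to follow intensity (the intensity trend), 17 of 50 passed (34%, beside 16.9% of all genes), 12 lower and 5 higher. The 10 added were Actb, Capg, Vasp, Flna, Lcp1, Myh9 and Tln1, lower, and Capza1, Rdx and Vim, higher. Among genes above the median signal, 15 of 45 passed beside 30.7% of that background, a share near it. Without 1 array the count was between 3 and 6. It was 3 without pristine PEEK replicate 1 or 3, and 4 without pristine PEEK replicate 2 or modified PEEK replicate 3. Zyx, Actn1 and Msn passed in each of the 6 fits without 1 array. With arrays scaled to the poly-A spikes, RNAs added in known amounts, 1 gene passed as lower (Zyx) and 2 as higher (Coro1c and Tagln2).

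The arrays of the surfaces did not overlap for 27 of the 50 genes, 54% beside 28.8% of all genes. Of those, 19 were lower on modified PEEK, beside 14.5% of all genes, and 8 were higher, beside 14.3%. The 50 genes are bright: 45 were above the median signal and 30 in the top 10%. All genes are thus not a background of like signal, and whether signal level gives the larger share was not tested. A gene whose arrays separate need not pass. The moderated test also weighs the spread seen in other genes, and its p is adjusted over all genes. Of the 50 genes, 17 had an unadjusted p under 0.05 in limma. By an ordinary t statistic, without that moderation but adjusted in the same way, 9 passed.

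**Figure D2:**
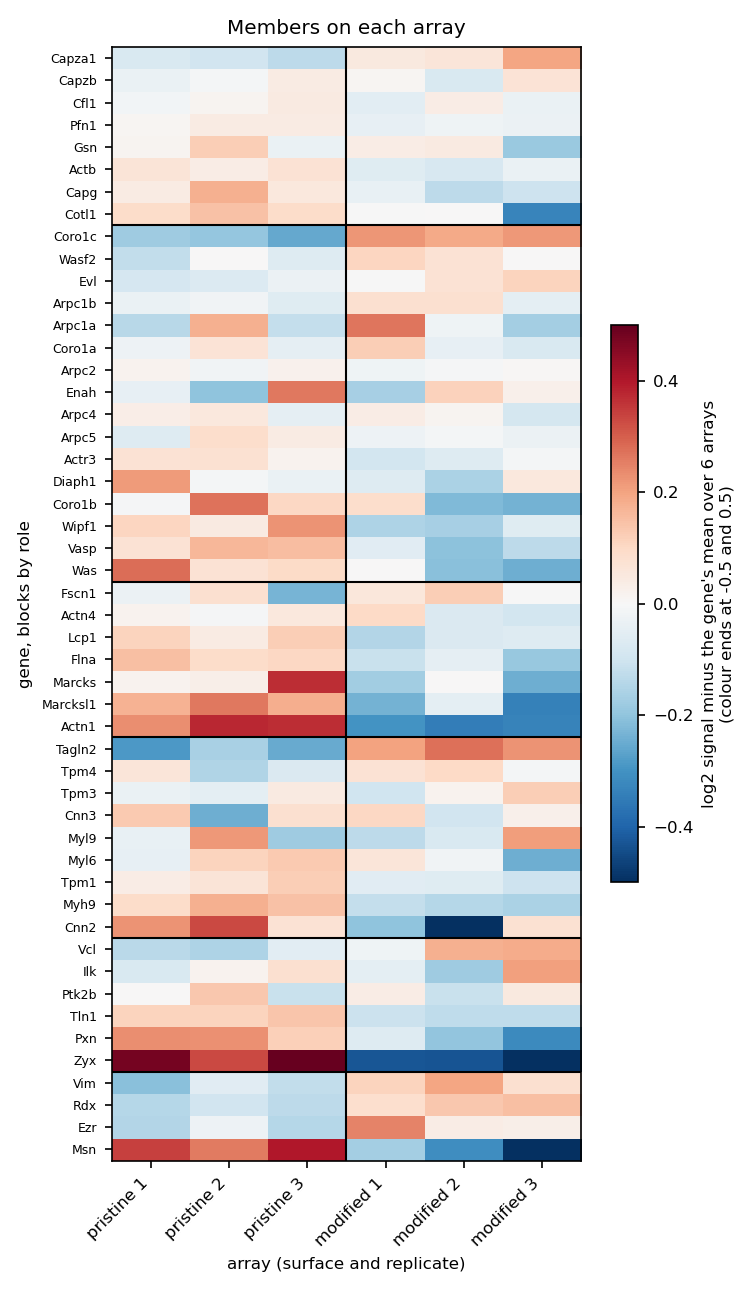
Each row is a gene, blocked by role, and each column an array; colour is the log2 signal minus the gene's mean over the 6 arrays, with the colour scale ending at -0.5 and 0.5. The strongest contrasts between the surfaces are in the rows of Zyx, Msn, Actn1 and Tagln2, while rows such as Arpc2 and Capzb are near 0 on every array.

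Sequence upstream of the start sites is shown for the 3 genes that fell in every fit without 1 array and for the 2 that rose, to set members that moved in opposite directions beside each other. The windows are the 250 bases before the RefSeq start on the strand of the gene, in GRCm38.p6. They lie at chr6:42349578-42349827 (plus strand) for Zyx, chr12:80260364-80260613 (minus strand) for Actn1, chrX:96095795-96096044 (plus strand) for Msn, chr1:172499996-172500245 (plus strand) for Tagln2 and chr5:113908707-113908956 (minus strand) for Coro1c. Capitals mark matches on either strand to an AP-1 motif (TGANTCA), a TEAD motif (GGAATG), a GC box (GGGCGG) or a CArG box, the element bound by serum response factor. No matches overlapped in these windows.
Zyx: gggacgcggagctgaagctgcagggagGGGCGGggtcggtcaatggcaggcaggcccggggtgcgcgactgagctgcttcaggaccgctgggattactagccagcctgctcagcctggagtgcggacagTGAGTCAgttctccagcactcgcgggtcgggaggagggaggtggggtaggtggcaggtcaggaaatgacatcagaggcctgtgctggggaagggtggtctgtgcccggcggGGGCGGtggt
Actn1: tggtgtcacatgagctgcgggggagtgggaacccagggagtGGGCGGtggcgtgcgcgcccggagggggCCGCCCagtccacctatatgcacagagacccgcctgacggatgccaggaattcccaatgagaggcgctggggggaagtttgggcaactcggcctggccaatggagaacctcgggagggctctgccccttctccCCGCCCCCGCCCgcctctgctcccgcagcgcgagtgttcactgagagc
Msn: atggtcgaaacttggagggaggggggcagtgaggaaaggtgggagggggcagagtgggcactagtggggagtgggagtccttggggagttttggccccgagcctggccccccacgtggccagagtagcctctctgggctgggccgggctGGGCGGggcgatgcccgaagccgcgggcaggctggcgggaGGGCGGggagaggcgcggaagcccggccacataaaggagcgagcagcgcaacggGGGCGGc
Tagln2: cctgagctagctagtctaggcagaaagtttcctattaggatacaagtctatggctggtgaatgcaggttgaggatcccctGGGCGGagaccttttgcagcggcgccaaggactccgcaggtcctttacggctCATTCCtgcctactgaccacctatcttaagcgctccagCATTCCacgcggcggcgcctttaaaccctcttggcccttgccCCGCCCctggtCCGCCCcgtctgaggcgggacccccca
Coro1c: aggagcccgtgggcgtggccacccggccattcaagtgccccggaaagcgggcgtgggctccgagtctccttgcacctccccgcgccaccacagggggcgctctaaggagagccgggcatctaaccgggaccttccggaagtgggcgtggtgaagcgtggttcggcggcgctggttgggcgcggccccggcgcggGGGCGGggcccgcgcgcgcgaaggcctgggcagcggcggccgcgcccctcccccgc
The Zyx window held the AP-1 match, which began 121.0 bases before the start, and the Tagln2 window held 2 TEAD matches. GC boxes stood in each of the 5 windows, whether the gene rose or fell. Marcksl1, which also passed as lower, had a window without a match to any of these motifs, and Pxn had no window. Of the 43 members with a window, 3 had an AP-1 match (Zyx, and Actn4 and Ezr, which did not pass), 9 a TEAD match, of which 1 passed, and 31 a GC box, of which 5 passed. Counted by gene in the same way over all 27025 genes in the table, 7.82% had the AP-1 motif, 14.4% the TEAD motif, 35.4% a GC box and 1.62% a CArG box.

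CArG boxes are known from promoters of cytoskeletal genes, and 5 of the 43 members with a window had one, beside 1.62% of all 27025 genes in the table. These were Vcl, Cnn2, Myl9, Myl6 and Arpc4, shown here with the box in capitals because none of them passed. The windows for Vcl and Cnn2 lie at chr14:20929148-20929205 and chr10:79988519-79988578, those for Myl9 and Myl6 at chr2:156775278-156775337 and chr10:128493025-128493084, Myl6 being on the minus strand.
Vcl: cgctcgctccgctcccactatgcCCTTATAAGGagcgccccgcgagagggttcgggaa
Cnn2: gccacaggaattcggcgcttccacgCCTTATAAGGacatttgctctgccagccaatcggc
Myl9: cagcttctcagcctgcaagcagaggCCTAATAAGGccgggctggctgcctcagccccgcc
Myl6: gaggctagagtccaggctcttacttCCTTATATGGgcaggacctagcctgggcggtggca
Arpc4: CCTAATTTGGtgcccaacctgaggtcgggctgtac
The 5 genes had differences (modified minus pristine) of 0.23, -0.42, 0.0015, -0.13 and -0.026. By limma 0 of 5 passed, 2 had an unadjusted p under 0.05, and 0 passed with an intensity trend. The Arpc4 box began 250 bases before its start (chr6:113377863-113377897), at the edge of the window. A match is a description of these letters and not evidence of binding.

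Genes of the monomer pool and of filament turnover differed little, and none passed. Actb, encoding beta-actin, gave 12.08, 12.05 and 12.09 on pristine PEEK and 11.95, 11.94 and 11.98 on modified PEEK. The modified arrays were all lower, by a mean of 0.12 (95% interval -0.31 to 0.080, adjusted p = 0.497), and Actb passed with an intensity trend (adjusted p = 0.0167). Signals this bright can be compressed on an array. Pfn1, encoding profilin, which loads monomers onto growing ends, gave 11.48, 11.51 and 11.51 on pristine PEEK and 11.43, 11.45 and 11.44 on modified PEEK. The groups did not overlap, yet the difference of -0.061 did not pass (adjusted p = 0.749). Cfl1, encoding the severing protein cofilin, differed by -0.032 (modified minus pristine, as throughout), and its arrays overlapped. None of the 8 genes passed in limma, 0 had an unadjusted p under 0.05, 3 passed with an intensity trend and 1 by an ordinary t statistic. Of the capping protein subunits, Capza1 was higher on all 3 modified arrays, by 0.20 (-0.0053 to 0.41), and did not pass (adjusted p = 0.233, or 0.0117 with an intensity trend). Capzb was at 0.0019 (-0.21 to 0.21). Capg and Gsn, of the gelsolin family of severing and capping proteins, differed by -0.18 and -0.068, and Cotl1, a coactosin that binds filaments, by -0.22.

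In the group for nucleation and elongation, 1 of 16 genes passed (6.25%, beside 10.4% of all genes) and the median change was -0.022. That gene was Coro1c, a coronin, a family that binds filaments and restrains or recycles the Arp2/3 complex. Coro1c gave 9.53, 9.51 and 9.45 on pristine PEEK and 9.92, 9.89 and 9.92 on modified PEEK. The 3 modified arrays lay together above the pristine ones, from 9.50 ± 0.04 to 9.91 ± 0.02 (SD, n = 3), with an SE of 0.086 and adjusted p = 0.0184. Removing any 1 of the pristine arrays or modified PEEK replicate 3 ended the call (adjusted p at most 0.0921). Coro1a, the coronin typical of blood cells, differed by 0.0037, and Coro1b by -0.25.

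The subunits of the Arp2/3 complex, which nucleates branches, differed little between the surfaces. Arpc2 gave 11.16, 11.13 and 11.16 on pristine PEEK and 11.12, 11.14 and 11.15 on modified PEEK, overlapping sets with a difference of -0.015 (95% interval -0.21 to 0.18). Arpc1b gave 10.83, 10.84 and 10.80 on pristine PEEK and 10.94, 10.94 and 10.81 on modified PEEK, a difference of 0.073 (-0.13 to 0.28). The other 4 measured subunits lay between -0.11 (Actr3) and 0.054 (Arpc1a), with Arpc5 at -0.043 and Arpc4 at -0.026. By limma 0 of these 6 passed (0 at an unadjusted p under 0.05, 0 with an intensity trend and 0 by an ordinary t statistic), and the interval of each lay inside a 1.5-fold difference. The activators Was, the blood-cell member of its family, and Wipf1, its stabilising partner, were lower on all 3 modified arrays, by 0.30 (adjusted p = 0.147) and 0.25 (adjusted p = 0.152), and did not pass. Wasf2, which acts at the leading edge, differed by 0.12. Among elongation factors, Vasp gave 9.74, 9.84 and 9.83 on pristine PEEK and 9.62, 9.47 and 9.54 on modified PEEK, lower on all 3 arrays at adjusted p = 0.130. Evl and Enah, of the same family, differed by 0.12 and -0.018, and the formin gene Diaph1 by -0.11.

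Bundling and crosslinking genes had the lowest median of the groups, -0.23. Of these 7 genes 2 were lower and none higher, beside 5.15% and 5.24% of all genes. Actn1, encoding an alpha-actinin that crosslinks filaments in stress fibres and at adhesions, gave 8.55, 8.69 and 8.69 on pristine PEEK and 8.02, 7.97 and 7.98 on modified PEEK. Every modified array was below every pristine one, from 8.64 ± 0.08 to 7.99 ± 0.02 (SD, n = 3), 1.57-fold lower (adjusted p = 0.00297, and at most 0.0205 without any 1 array). Actn1 did not pass with arrays scaled to the poly-A spikes (-0.40, adjusted p = 0.119). Actn4, encoding the other alpha-actinin of non-muscle cells, gave 10.00, 9.98 and 10.04 on pristine PEEK and 10.09, 9.91 and 9.89 on modified PEEK and did not pass (difference -0.044, interval -0.26 to 0.18). Marcksl1, a membrane-bound protein kinase C substrate that binds actin, went from 7.01 ± 0.05 to 6.60 ± 0.15 (SD, n = 3; adjusted p = 0.0433). On single arrays it gave 6.98, 7.07 and 6.99 on pristine PEEK and 6.57, 6.76 and 6.47 on modified PEEK, sets that did not overlap. Its call held only without modified PEEK replicate 2 among the fits that leave out 1 array (adjusted p up to 0.151). Its relative Marcks differed by -0.28 (adjusted p = 0.250).

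Further bundling genes at high signal had small negative differences that did not pass. Lcp1, encoding the plastin of white blood cells, gave 11.43, 11.36 and 11.44 on pristine PEEK and 11.17, 11.24 and 11.25 on modified PEEK (difference -0.19, adjusted p = 0.263). Flna, encoding filamin, gave 10.90, 10.84 and 10.85 on pristine PEEK and 10.64, 10.70 and 10.55 on modified PEEK (difference -0.23, adjusted p = 0.173). In both genes all 3 modified arrays lay below the pristine ones. Fscn1, encoding fascin, was below background on both surfaces (2.79 and 2.91). Background was taken as 3.72, below which 95% of 1410 olfactory or vomeronasal receptor genes lay.

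**Figure D3:**
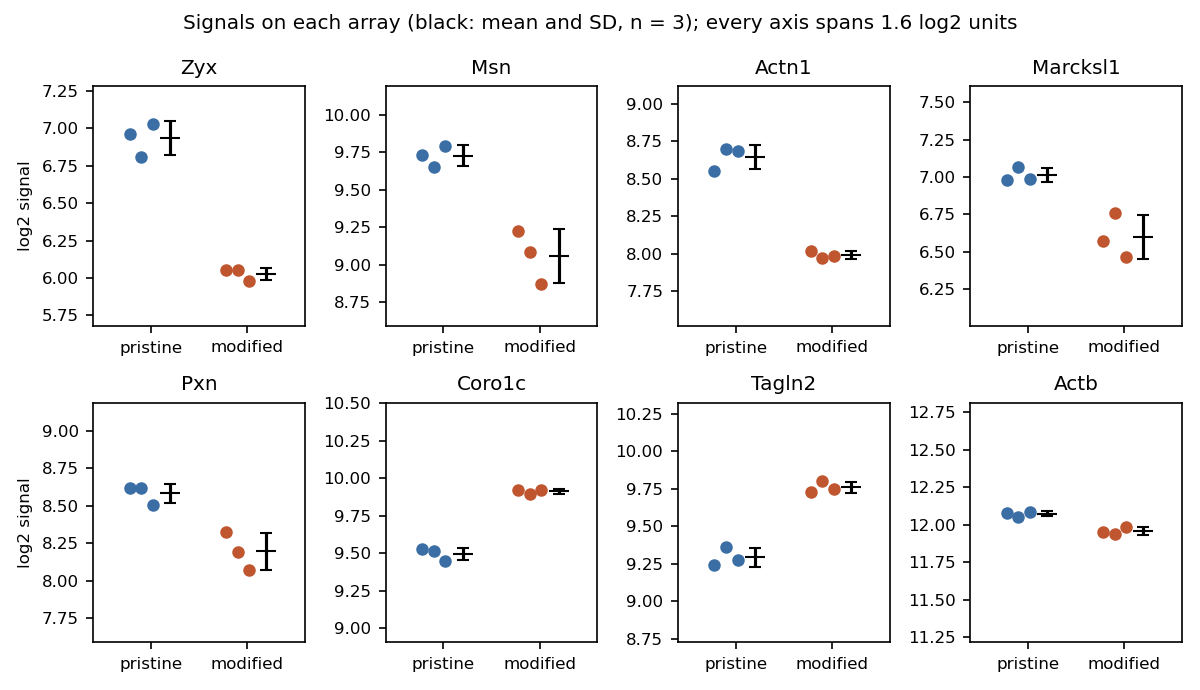
Log2 signals on each of the 3 arrays per surface for the 7 genes that passed and for Actb, with the mean and SD in black; every vertical axis spans 1.6 log2 units. The surfaces do not overlap in any panel, and the gap runs from 0.12 in the mean for Actb to 0.90 for Zyx.

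Contractile genes had a median change of 0.0015, or -0.066 with genes below background on both surfaces left out. Of the 9 genes 1 passed (11.1%, near the 10.4% of all genes). That was Tagln2, encoding transgelin-2, a calponin-like protein that binds and stabilises filaments. It gave 9.24, 9.36 and 9.27 on pristine PEEK and 9.73, 9.80 and 9.75 on modified PEEK. All modified arrays were above all pristine ones, from 9.29 ± 0.06 to 9.76 ± 0.04 (SD, n = 3; adjusted p = 0.0132). Without pristine PEEK replicate 1 or 3 the adjusted p reached 0.0658. Myh9, the heavy chain of non-muscle myosin that pulls on filaments, gave 10.16, 10.25 and 10.22 on pristine PEEK and 9.95, 9.93 and 9.92 on modified PEEK, lower on all 3 arrays by 0.28 (adjusted p = 0.0872). It passed with an intensity trend (adjusted p = 0.000276). The myosin light chain genes Myl6 and Myl9 differed by -0.13 and 0.0015, with intervals of -0.39 to 0.13 and -0.32 to 0.32.

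The tropomyosin genes, whose products coat filaments and gate their access to myosin and cofilin, did not pass. Tpm3 gave 11.11, 11.09 and 11.19 on pristine PEEK and 11.04, 11.16 and 11.26 on modified PEEK, overlapping sets with a difference of 0.025. Tpm1 differed by -0.15 and Tpm4 by 0.11. The calponin genes were dim: Cnn2 differed by -0.42 with overlapping arrays (interval -0.77 to -0.063), and Cnn3 was below background on both surfaces (2.67 and 2.69).

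Of 6 adhesion genes 2 fell and none rose, beside 5.15% and 5.24% of all genes, with a median of -0.13. Zyx, encoding zyxin, a LIM protein that recruits Ena/VASP proteins to adhesions and stressed filaments, gave 6.96, 6.81 and 7.03 on pristine PEEK and 6.05, 6.05 and 5.98 on modified PEEK. The lowest pristine array was 0.76 above the highest modified one. Zyx went from 6.93 ± 0.11 to 6.03 ± 0.04 (SD, n = 3), a change of -0.90 ± 0.097 (SE; adjusted p = 0.000892), the largest in size among the 50 genes. The adjusted p was at most 0.00788 without any 1 array. Pxn, encoding the adaptor paxillin, gave 8.62, 8.62 and 8.51 on pristine PEEK and 8.32, 8.19 and 8.07 on modified PEEK. It was 1.31-fold lower and close to the threshold (adjusted p = 0.0496), and it passed in 1 of the 6 fits without 1 array, that without modified PEEK replicate 1 (adjusted p up to 0.162).

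The remaining adhesion genes did not pass. Tln1, encoding talin, which links integrins to actin, gave 11.27, 11.27 and 11.29 on pristine PEEK and 11.05, 11.03 and 11.03 on modified PEEK. The 2 sets were far apart relative to their spread, and the difference of -0.24 had adjusted p = 0.125, or 7.02e-05 with an intensity trend. Vcl, encoding vinculin, which reinforces talin, gave 6.13, 6.11 and 6.21 on pristine PEEK and 6.24, 6.44 and 6.45 on modified PEEK (difference 0.23, adjusted p = 0.219). Ilk, encoding the scaffold integrin-linked kinase, gave 8.90, 8.99 and 9.05 on pristine PEEK and 8.93, 8.80 and 9.18 on modified PEEK, overlapping sets. Ptk2b, encoding the focal adhesion kinase relative PYK2 of macrophages, differed by -0.017 (interval -0.26 to 0.22).

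Of 4 membrane linker and intermediate filament genes, 1 passed, beside 10.4% of all genes. Msn, encoding moesin, the main such protein of white blood cells, gave 9.73, 9.65 and 9.79 on pristine PEEK and 9.22, 9.08 and 8.87 on modified PEEK. Every modified array was lower, from 9.73 ± 0.07 to 9.06 ± 0.18 (SD, n = 3; adjusted p = 0.00813, and at most 0.0420 without any 1 array). Scaled to the spikes, Msn did not pass (-0.42, adjusted p = 0.140). Rdx, encoding radixin, gave 8.71, 8.76 and 8.73 on pristine PEEK and 8.94, 8.99 and 9.01 on modified PEEK, and Ezr, encoding ezrin, differed by 0.21. Both were higher on all 3 modified arrays without passing (adjusted p = 0.126 for Rdx, 0.277 for Ezr). Vim, encoding the intermediate filament protein vimentin, gave 11.31, 11.46 and 11.39 on pristine PEEK and 11.63, 11.71 and 11.60 on modified PEEK and did not pass (difference 0.26, adjusted p = 0.136). The median of these 4 genes was 0.23, the opposite sign to Msn.

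Relative change within families was read from the difference between 2 probe sets on each array, in 9 pairs. Ezr relative to Msn shifted by 0.88, Actn1 relative to Actn4 by -0.61, Coro1a relative to Coro1c by -0.41, Vasp relative to Evl by -0.38 and Tpm1 relative to Tpm4 by -0.26. In these 5 pairs the arrays of the surfaces did not overlap (exact permutation test, two-sided, p = 0.1, the smallest that 3 arrays against 3 allow; 0.18 adjusted over the 9 pairs). In the other 4 they did. Cnn3 was below background on both surfaces, so no shift is given for Cnn2 relative to it. The remaining shifts were 0.14 for Marcks relative to Marcksl1, -0.11 for Capg relative to Gsn and -0.019 for Arpc1a relative to Arpc1b. A shift shows unequal change within an array and not which gene was constant.

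**Figure D4:**
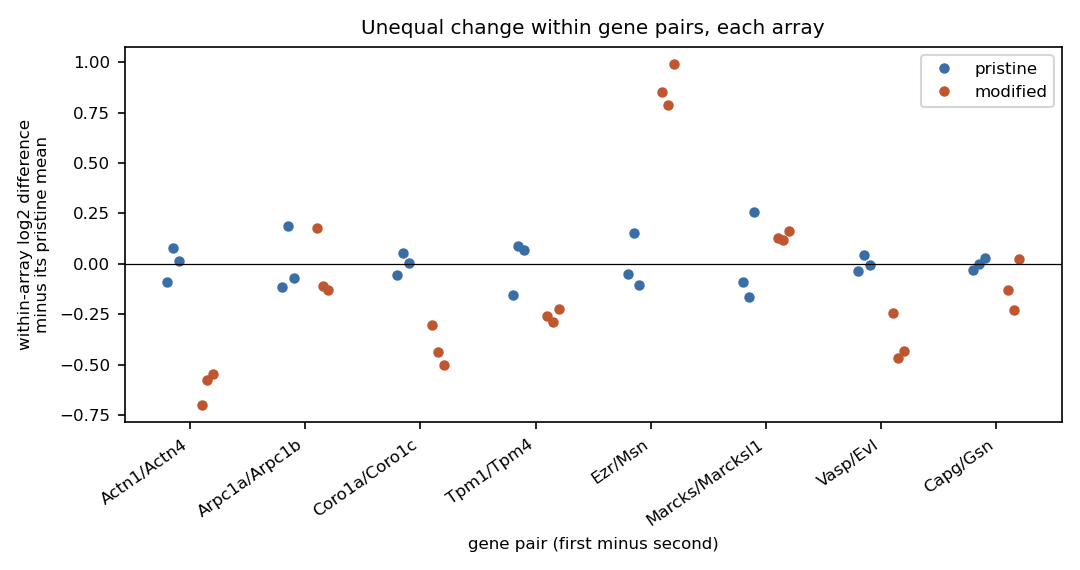
For each of the 8 gene pairs with both genes above background, the vertical axis is the log2 signal of the first gene minus that of the second on the same array, less its mean over the pristine arrays; each point is an array. The modified arrays of Ezr/Msn lie above the pristine ones, by 0.88 in the mean, and those of Actn1/Actn4, Coro1a/Coro1c, Tpm1/Tpm4 and Vasp/Evl below.

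Other genes of the same pathways were read from lists. Of 31 further integrin-linked adhesion and podosome genes, 5 were lower and 0 higher, 16.1% beside the 10.4% of all genes. Lims2, encoding a PINCH adaptor that binds integrin-linked kinase, went from 6.96 ± 0.14 to 5.23 ± 0.34 (SD, n = 3; change -1.73, adjusted p = 0.000615). The tyrosine kinase gene Src, whose product phosphorylates adhesion adaptors, fell by 1.05. The zyxin relative Lpp fell by 0.82 (adjusted p = 0.00824). Tes, encoding the LIM protein testin, fell by 0.81 (adjusted p = 0.00283), and Parvb, encoding a parvin, by 0.40. The list's median change was -0.027, near that of all genes.

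Among 27 activators of branching, WAVE complex genes and formins, 2 were higher and 3 lower, 18.5% beside the 10.4% of all genes. The WAVE complex gene Nckap1 was below background on modified PEEK and at least 1.67-fold lower, the brighter mean being set against background, and Cyfip2 of the same complex fell by 0.69. Abi3, another gene of the complex, rose by 0.66 (adjusted p = 0.00521), and Nckap1l, the blood-cell relative of Nckap1, gave 9.33 and 9.36 in the mean (adjusted p = 0.892), so genes of this complex did not move one way. The formin gene Diaph3 rose by 0.88 (adjusted p = 0.00104).

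Of 23 monomer-binding, severing and capping genes, 3 were lower and 0 higher, 13.0%, a share near the 10.4% of all genes. They were the thymosin gene Tmsb10 (-0.62), the profilin gene Pfn2 (-0.44) and Flii (-0.44), a gelsolin relative. Of 15 further crosslinkers, 3 were lower and 1 higher (26.7%), among them the plakin gene Dst (-0.89), the filamin gene Flnc (-0.80) and the leukocyte actin-binding gene Lsp1 (0.78). Of 19 myosin and contractility genes, 1 passed (5.26%), the myosin gene Myo1f at 0.52. Serum response factor and its cofactors gave 0 of 6 by limma, with 0 at an unadjusted p under 0.05, 0 with an intensity trend and 0 by an ordinary t statistic (median -0.12).

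**Figure D5:**
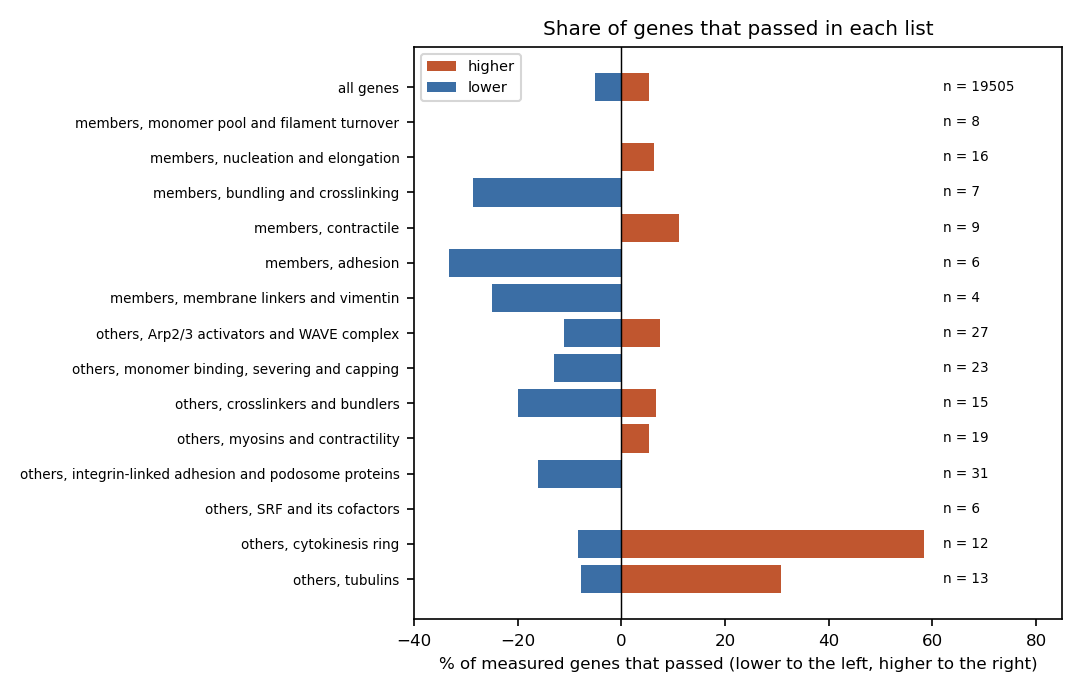
Bars give the percentage of measured genes in each list that passed in limma, lower on modified PEEK to the left and higher to the right, with the number of genes at the right. Adhesion, bundling and membrane-linking members extend to the left (2 of 6, 2 of 7 and 1 of 4 genes). So do the further adhesion (5 of 31), crosslinker (3 of 15) and severing and capping (3 of 23) lists. The cytokinesis list extends to the right (7 of 12), and all genes show 5.15% and 5.24%.

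Genes of cell division moved with the surface as well, and their part in these results was not tested. Of 12 genes of the cytokinesis ring, which uses actin and myosin to split dividing cells, 7 were higher and 1 lower. Among all genes 5.24% were higher and 5.15% lower. The largest rises were those of Prc1 (1.38), Anln (1.34) and Ect2 (1.32). The mean log2 signal of the list was 7.97 to 8.06 on pristine and 8.66 to 8.74 on modified arrays. In bulk RNA, fewer cells of a state and less RNA per cell cannot be told apart.

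The label was checked against macrophage markers. Csf1r (11.18 and 11.43), Lyz2 (11.95 and 12.03) and Spi1 (11.95 and 11.85) were bright on both surfaces. Above background on at least 1 surface were 10 of the 11 macrophage markers measured, the dimmest having a mean of 3.14 over all arrays. Of 11 macrophage markers 2 were higher and 3 lower, beside 5.24% and 5.15% of all genes, with array means of 9.60 to 9.68 and 9.52 to 9.59. Itgam, an integrin subunit that sits in these adhesions, fell by 0.59, the Fc receptor gene Fcgr1 fell by 0.85, and Adgre1, encoding F4/80, rose by 0.54. Of 10 osteoclast markers, a fate open to RAW264.7 cells, 4 were lower and 0 higher, beside 5.15% and 5.24% of all genes. Their array means were 6.01 to 6.10 on pristine and 5.39 to 5.46 on modified PEEK. The part of this in the results was not tested. Fibroblast, smooth muscle, epithelial, lymphocyte and neutrophil markers had 0 of 26 passing by limma (2 at an unadjusted p under 0.05, 0 with an intensity trend and 0 by an ordinary t statistic), with array means between 2.92 and 4.53. Above background were 4 of 7 fibroblast, 4 of 6 smooth muscle, 3 of 5 epithelial, 1 of 4 lymphocyte and 1 of 4 neutrophil markers, the brightest being Smtn (6.33) and Col1a1 (5.90). Array medians over all genes ran from 4.98 to 5.10, and the number of arrays limits the precision. Poly-A spike probe sets differed by -0.25 between the surfaces (exact permutation test, two-sided p = 0.2). The arrays' hybridization controls differed the same way, by -0.17 (exact permutation test, two-sided p = 0.2). What either shift reflects was not tested. Arrays scaled to the poly-A spikes gave a median of 0.26 over all genes. On that scale the medians of all groups were above 0, and Zyx (-0.66 in log2 change, adjusted p = 0.0276), Coro1c and Tagln2 passed while Actn1, Msn, Marcksl1 and Pxn did not (adjusted p from 0.119 to 0.568). Relative to that all-gene median, the bundling group was at -0.24 and the adhesion group at -0.14.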

How the data were processed

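Trizol-extracted total RNA from 6 samples was made into biotinylated cDNA and run on Affymetrix arrays, per the labels' protocols. The deposited values are log2 signals per probe set; the submitters' processing notes name RMA, a method that corrects background, equalises quantiles and summarises probes, with no version, and the log2 scale was read from the values (0.941 to 12.4). Quantile normalization would hide a change in total RNA per cell. The table had 29129 features, 6923 of them array controls; 19572 probe sets had 1 gene in the platform annotation, 0 had several and 2634 none, and the brightest was kept per gene, leaving 19505 genes. No source used here gives the array's genome build; promoter windows come from RefSeq in GRCm38.p6, where 43 of the 50 members matched.

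The test was limma 3.58.1 (R 4.3.3) with lmFit and eBayes, no trend and no covariate, two-sided, with Benjamini-Hochberg adjustment over all 19505 genes; an adjusted p under 0.05 was a pass. A change is the log2 mean on modified PEEK less that on pristine PEEK; arrays can compress folds. The fit had 4 residual and 4.09 prior degrees of freedom, which also set the 95% intervals. Tested on simulated data for this comparison (19505 genes, 200 changed), it recovered 24.8% of changes of 0.5 on the log2 scale, 74.6% of 1 and 98.4% of 2, with 4.17% of calls false. The simulation changed 200 genes, whereas 2027 passed in these data, and the adjusted threshold depends on how many genes change. These rates therefore cannot be read as recovery for the members, 45 of which were above the median signal. Recovery among the members was not tested. Many of the differences among the members are below 0.5 in size, and Pxn (-0.39), Marcksl1 (-0.41), Coro1c (0.42) and Tagln2 (0.47) passed in that range.

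Members, lists, pairs and tests were chosen with earlier results of these data known. Named were every member, and from each other list up to 3 passing genes with the largest change; Tes, Parvb, Septin9, Abi3, Nckap1l, Tubb2a, Tuba1b, Dcstamp, Calcr, Col1a1, Smtn and the macrophage markers Csf1r, Lyz2 and Spi1 were added after their values were seen. A motif was searched on both strands of the 250 bases before each start. A further list of pathway genes is not reported here. There were 0 unused columns of per-sample values. No label says that a replicate number marks a shared batch. Correlations of deviations between arrays of the same number were -0.17, -0.16 and 0.068, and so few arrays cannot settle it. Alternatives changed the scaling of arrays, the filter on dim genes, the probe set per gene, the variance model, the block and the arrays included.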

Additional observations from a re-analysis of the deposited data

How the results depend on the processing

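No call turned in direction under any alternative. Of the 7 genes that passed, 3 also did with the arrays scaled to the poly-A spikes (1 lower) and 5 with arrays centred on their medians (3 lower). An intensity trend gave 17 members (5 higher, 12 lower) and 3305 genes, and with a robust fit the same member counts and 3282 genes; with the lowest 50% of genes left out there were 15 (4 higher, 11 lower). The fit with the replicate number as a block gave 1268 genes and 3 members, 0 higher and 3 lower (Zyx, Actn1 and Msn). Whether the numbers mark a shared batch is not given in the labels. Leaving out 1 array gave 1142 to 1863 genes and 3 to 6 members, of them 0 to 2 higher and 3 to 4 lower. Scaled to the spikes, the median change was 0.20 for members, 0.18 for monomer pool, 0.23 for nucleation, 0.017 for bundling, 0.25 for contractile, 0.12 for adhesion and 0.48 for membrane linker genes, beside 0.26 for all genes, by construction of that scale. The shift of Arpc1a relative to Arpc1b, -0.019, was 0.017 after quantile normalization again and between -0.12 and 0.074 without 1 array. Leaving out genes below background on both surfaces was chosen after seeing the data and gave 8 members. The cause of the other differences was not tested.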

Other observations

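Tubulin genes, which encode the other main filament of the cytoskeleton, rose in 4 of 13 cases and fell in 1, beside 5.24% and 5.15% of all genes, with a median change of 0.15. Tubb5 gave 10.81, 10.93 and 10.83 on pristine PEEK and 11.37, 11.41 and 11.36 on modified PEEK, sets that did not overlap (adjusted p = 0.00778 in limma). Tubb4b rose by 0.67, Tuba1b by 0.47 and Tubb2a by 0.49, while Tuba4a fell by 0.52. Probe sets of such near-identical genes can share signal. Septin9, of a family of filaments that gather at the cleavage furrow, was the 1 gene of the cytokinesis list that fell, by 0.39 (adjusted p = 0.0419).

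Of the osteoclast markers, Atp6v0d2, a proton pump subunit, fell by 2.43, Acp5, encoding the phosphatase that marks osteoclasts, by 1.41, and Dcstamp, a gene of cell fusion, by 0.84. Mmp9, encoding a matrix protease, was below background on modified PEEK and at least 1.48-fold lower. Of the 10 markers 6 did not pass, and 2 had changes above 0 (at most 0.33), 1 of them with arrays that did not overlap. Acp5 gave 7.95, 7.86 and 7.94 on pristine PEEK and 6.75, 6.36 and 6.42 on modified PEEK, sets that did not overlap. Osteoclasts seal to bone with an actin ring, and Calcr, a marker of mature osteoclasts, was below background on both surfaces (3.27 and 3.16).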
